A study of Danio rerio with 15 samples.

Results

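The genes described here are 35 zebrafish genes of cholesterol synthesis, sterol sensing, uptake, intracellular transport, esterification and efflux. They were chosen by symbol from a fixed list, with no measured value in the rule, although the list was drawn up with earlier results of these data known, and all 35 were found among the 32520 genes of the deposited table. All 35 also passed the filter on low counts, which left 21477 genes to test. In the deposited coordinates, for which the sources used here name no genome build, they lie on 18 chromosomes, with at most 4 of them on a single chromosome (chromosome 16).

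The data are RNA-seq libraries of whole AB wild-type zebrafish larvae at 120 hours post-fertilization (hpf). Larvae were controls or were exposed to 0.1, 1, 5 or 10 µM PFOS (perfluorooctanesulfonic acid, a persistent fluorinated surfactant), with 3 libraries per group and 15 in all. The labels do not say what the controls received, when exposure began, how many larvae made up a library, or whether replicate libraries had separate clutches or exposures behind them. All p-values therefore rest on library-to-library spread, some of which may be technical. The title of the series places the study in developmental neurotoxicity.

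Animal cells make cholesterol from acetyl-CoA. The mevalonate steps give isoprenoid units that are joined to squalene, and squalene is then closed into a ring and trimmed to cholesterol. The pathway is held in feedback by the transcription factor SREBP2, the product of srebf2. SCAP escorts SREBP2 out of the endoplasmic reticulum when sterols are scarce, and INSIG proteins hold it back when sterols are plentiful. Its known targets include the synthesis enzymes and the low-density lipoprotein (LDL) receptor, which brings cholesterol in from outside. NPC1 and NPC2 pass LDL-derived cholesterol out of lysosomes, SOAT enzymes store it as esters, and ABCA1 exports it, the last under the sterol-activated nuclear receptor LXR (nr1h3). These roles are known mainly from mammals. In larvae at this age the liver, intestine and brain all handle cholesterol, and yolk lipid has been a main source.

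Library totals ran from 11956657 to 19978125 estimated counts. Levels are CPM (counts scaled to a common library size) on library sizes scaled by TMM (a scaling that assumes most genes do not differ), and fold changes, standard errors (SE) and adjusted p-values come from edgeR's quasi-likelihood test with Benjamini-Hochberg adjustment over all tested genes, with adjusted p below 0.05 as the threshold. Markers of neurons, skeletal muscle, liver, intestine, pancreas, epidermis, erythrocytes, lens and macrophages were detected in every library. PFOS 5 µM libraries 1 and 3 lay farthest from the rest of their own group, with median absolute log2 differences of 0.215 and 0.213, while the other 13 libraries lay between 0.134 and 0.183. The 10 µM columns are numbered 2, 3 and 4 and are named by those numbers. Because RNA came from whole bodies, a change in the number of cells of a type and a change in RNA per cell cannot be told apart.

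At 10 µM PFOS, 10 of the 35 cholesterol genes were higher than in controls and 0 were lower. Over all tested genes, 7.78% were higher and 6.65% lower, so the share of the members that was higher, 28.6%, was above that of the table as a whole. That is a description, since the genes were not chosen blind to these data. The members that passed were spread unevenly over the pathway. Of the 21 enzymes of synthesis, 2 rose (hmgcs1 and fdft1), and of the 4 genes of sterol sensing, 1 rose (insig1). Of the 5 genes of uptake and intracellular transport, 4 rose (ldlra, ldlrb, npc2 and stard4), and of the 5 genes of esterification and efflux, 3 rose (soat1, soat2 and abca1a). Whether those shares differ between roles was not tested. The median log2 fold change was 0.23 for the enzymes up to squalene and 0.44 for those from squalene on. It was 0.43 for sterol sensing, 0.57 for uptake and transport, and 0.55 for esterification and efflux. Calls also depend on the SE. It was 0.377 for sqlea, 0.343 for cyp51 and 0.330 for lss, enzymes from squalene on, and at most 0.220 among the passing genes. The median log2 fold change of the 35 was 0.43, beside -0.01 over all tested genes, and 31 of the 35 (88.6%) had a positive value, beside 49.0% of all tested genes. None of the passing members reached a doubling: the highest log2 fold change was 0.96 (ldlrb). The count of 10 fell to 4 without 10 µM library 2, to 5 without control library 3 or 10 µM library 4 and to 6 without control library 1, and in those fits 610, 727, 860 and 917 of all genes were called higher, against 1670 with every library. The median of the 35 was 0.24 without control library 3.

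**Figure D1:**
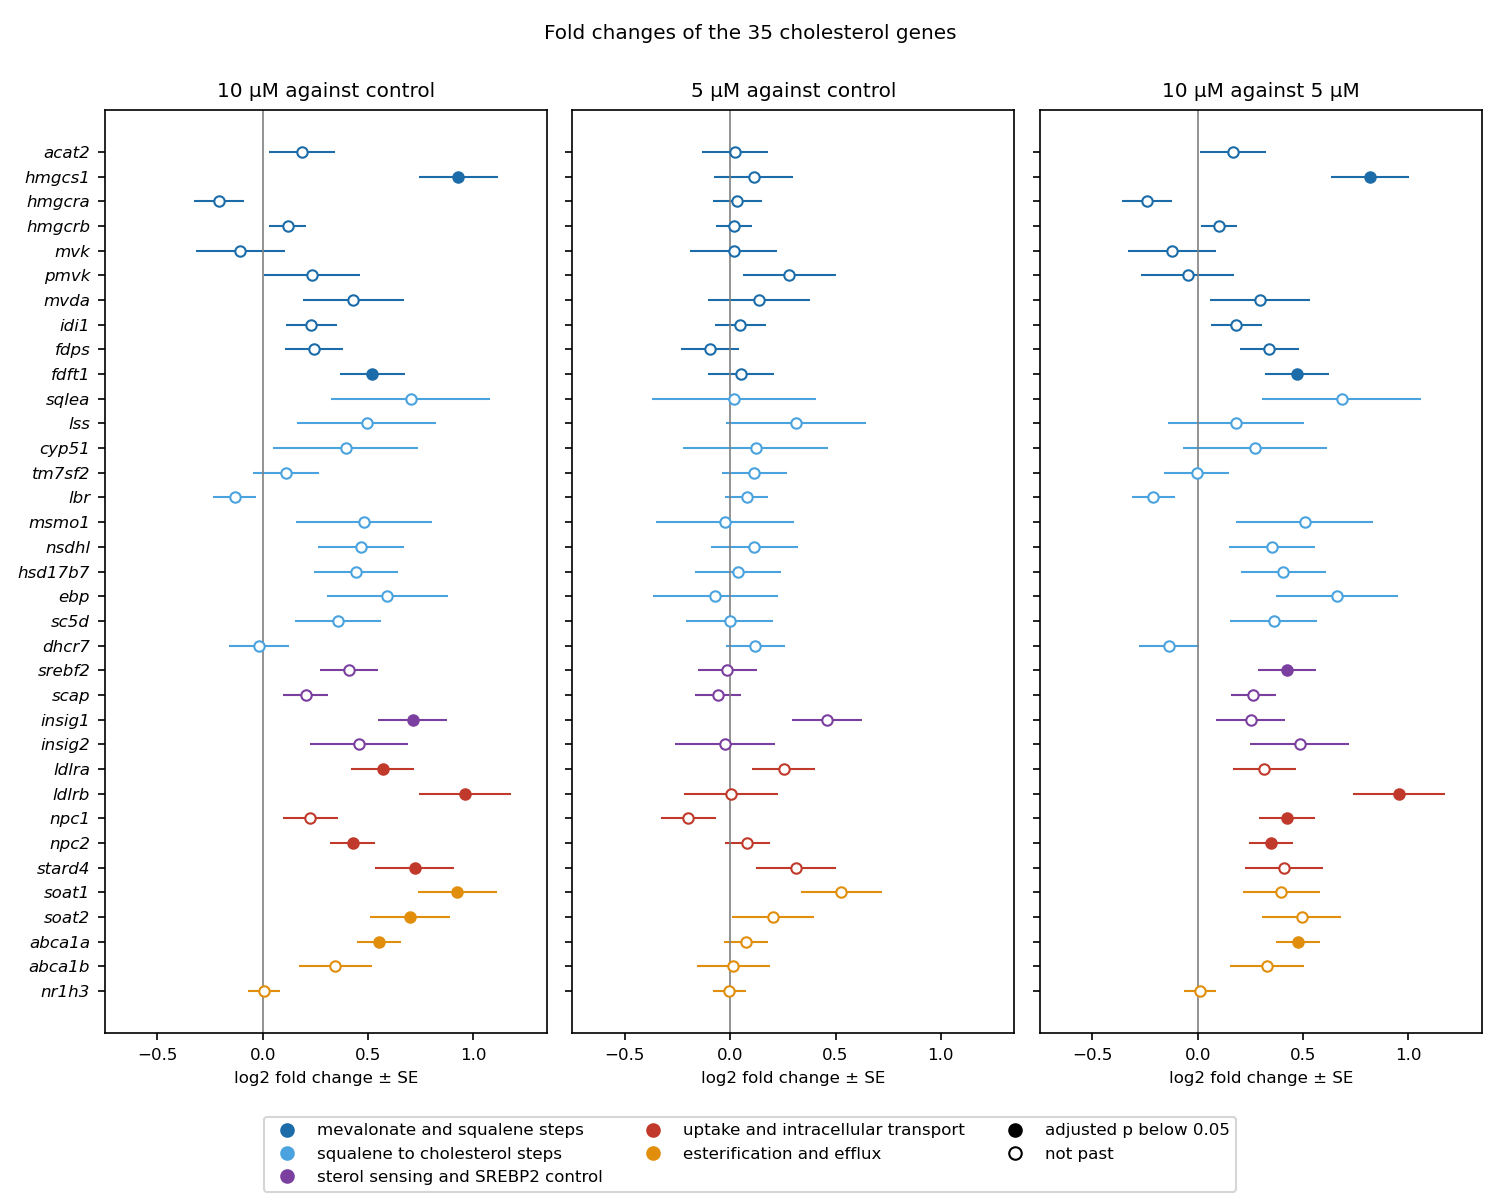
Log2 fold change with its SE for each of the 35 genes (rows, coloured by role) for 10 µM against control, 5 µM against control and 10 µM against 5 µM. Filled circles have an adjusted p below 0.05 in edgeR's quasi-likelihood test. Filled circles number 10 in the first panel, 0 in the second and 7 in the third, and most of those in the first panel are in the rows of uptake, transport, esterification and efflux.

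Most of the early enzymes that carry acetyl-CoA to squalene did not pass the test, and hmgcs1 and fdft1 were the exceptions. The gene hmgcs1 (ENSDARG00000103025, chromosome 10 from 6010570 to 6034397) encodes the cytosolic HMG-CoA synthase that makes the substrate of HMG-CoA reductase. Its levels were 38.0, 46.6 and 29.2 CPM in the control libraries, 46.3, 37.6 and 29.4 CPM at 0.1 µM, 43.1, 33.2 and 32.2 CPM at 1 µM, 47.3, 37.6 and 38.2 CPM at 5 µM, and 87.2, 64.6 and 65.2 CPM at 10 µM. The 12 libraries below 10 µM overlapped one another, and all 3 libraries at 10 µM lay above every one of them. At 10 µM hmgcs1 averaged 72.3 ± 12.8 CPM, against 37.9 ± 8.68 CPM in controls (SD, n = 3 each), a log2 fold change of 0.93 (SE 0.187, edgeR adjusted p = 0.00542). That difference passed when any single library of those groups was left out, the highest adjusted p being 0.0384.

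The gene fdft1 (ENSDARG00000101062, chromosome 20 from 52907397 to 52939501) encodes squalene synthase, the first enzyme committed to sterols. Its levels were 9.51, 10.3 and 7.96 CPM in the control libraries, 11.3, 9.76 and 10.1 CPM at 0.1 µM, 11.4, 9.29 and 10.6 CPM at 1 µM, 9.07, 11.3 and 8.5 CPM at 5 µM, and 14.9, 14.4 and 10.6 CPM at 10 µM. Its 10 µM libraries lay above the controls, but library 4 was within the range of the lower doses. The log2 fold change against control was 0.52 (SE 0.153, edgeR adjusted p = 0.0336). It did not pass without control library 1 (adjusted p = 0.0754), control library 3 (0.140), or 10 µM library 2 (0.147) or 3 (0.0984).

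HMG-CoA reductase, the rate-limiting enzyme of the pathway and the target of statins, is encoded by a pair of genes here, and neither passed. Levels of hmgcra were 25.1, 27.1 and 22.3 CPM in the control libraries, 26.5, 27.3 and 25.4 CPM at 0.1 µM, 25.2, 23.0 and 19.0 CPM at 1 µM, 28.3, 22.7 and 25.3 CPM at 5 µM, and 23.8, 19.6 and 21.3 CPM at 10 µM. Levels of hmgcrb were 37.0, 35.9 and 32.9 CPM in the control libraries, 37.1, 37.1 and 32.0 CPM at 0.1 µM, 32.5, 36.8 and 37.7 CPM at 1 µM, 36.8, 36.0 and 34.1 CPM at 5 µM, and 38.3, 37.3 and 39.1 CPM at 10 µM. The groups overlapped for hmgcra, and the 10 µM libraries lay just above the controls for hmgcrb. On the log2 scale the change at 10 µM was -0.21 for hmgcra (95% interval -0.46 to 0.04) and 0.12 for hmgcrb (95% interval -0.06 to 0.30), both short of that of hmgcs1, the gene of the step before.

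The other early enzymes did not pass at 10 µM. Their log2 fold changes were 0.19 for acat2 (thiolase), -0.11 for mvk (mevalonate kinase), 0.23 for pmvk (phosphomevalonate kinase), 0.43 for mvda (mevalonate diphosphate decarboxylase), 0.23 for idi1 (isopentenyl diphosphate isomerase) and 0.24 for fdps (farnesyl diphosphate synthase). Their 95% intervals all held 0. The widest of them, that of mvda, ran from -0.08 to 0.94, so a change as large as that of hmgcs1 lay just inside it. With single libraries left out, the log2 fold change ran from 0.24 to 0.56 for mvda and from 0.06 to 0.38 for pmvk.

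None of the 11 late enzymes, which turn squalene into cholesterol, passed at 10 µM, although 9 of the 11 had a positive log2 fold change and their median, 0.44, was close to that of all 35 members. Both members outside the passing set with a fold of at least 1.5 are in this stretch. The gene sqlea encodes squalene epoxidase, a second control point of the pathway. Its levels were 6.69, 5.75 and 2.63 CPM in the control libraries, 7.06, 4.38 and 2.28 CPM at 0.1 µM, 7.05, 4.88 and 3.96 CPM at 1 µM, 7.66, 3.57 and 4.05 CPM at 5 µM, and 8.70, 8.37 and 7.48 CPM at 10 µM. The groups at 10 µM and control did not overlap, and control library 3 was far below the other controls. The log2 fold change was 0.70 (SE 0.377, edgeR adjusted p = 0.228), and without control library 3 it was 0.40. The sterol isomerase gene ebp had 7.89, 3.83 and 4.81 CPM at 10 µM, against 3.88, 3.07 and 4.02 CPM in controls, with the groups overlapping (log2 fold change 0.59, SE 0.286, edgeR adjusted p = 0.182). Without 10 µM library 2, the highest of its group, the log2 fold change of ebp was 0.25.

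Control library 3 was the lowest of its group for 9 of the 11 late enzymes. The early enzymes showed much the same. Of those 10, library 3 was the lowest for 9 in controls, for 7 at 0.1 µM and for 6 at 1 µM. The share of all tested genes lowest in library 3 was not counted. The lanosterol demethylase gene cyp51 had 40.4, 37.7 and 13.1 CPM in the control libraries, 36.3, 29.7 and 15.1 CPM at 0.1 µM, 29.1, 25.0 and 22.3 CPM at 1 µM, 42.8, 23.0 and 33.3 CPM at 5 µM, and 42.1, 45.1 and 32.8 CPM at 10 µM. The methylsterol monooxygenase gene msmo1 had 21.2, 17.3 and 8.47 CPM in the control libraries, 17.6, 14.6 and 7.44 CPM at 0.1 µM, 14.8, 12.5 and 10.6 CPM at 1 µM, 21.5, 10.1 and 14.6 CPM at 5 µM, and 23.1, 24.6 and 17.9 CPM at 10 µM. In both genes library 3 was the lowest of the control, 0.1 µM and 1 µM groups, and library 2 the lowest of the 5 µM group. Across the 11 late enzymes library 3 was the lowest for 10 at 0.1 µM and for 7 at 1 µM, library 2 was the lowest for 10 at 5 µM, and 7 of the 11 were lowest in library 3 of the control, 0.1 µM and 1 µM groups alike. Over all tested genes, as a description across genes that are not independent, the deviations of 5 µM library 2 from its group mean correlated with those of library 3 of these groups at 0.113 to 0.315, and with those of their library 2 at -0.137 to -0.056.

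With control library 3 left out, the log2 fold change at 10 µM was 0.03 for cyp51, against 0.39 with it, and 0.18 for msmo1, against 0.48 with it. It was 0.20 for lss (lanosterol synthase) without that library, 0.18 for sc5d (a sterol desaturase) and 0.27 for nsdhl (a sterol dehydrogenase of the demethylation steps), against 0.49, 0.36 and 0.47 with it. The remaining late enzymes had log2 fold changes of 0.44 for hsd17b7 (the ketoreductase that works beside nsdhl), 0.11 for tm7sf2 (a sterol reductase), -0.13 for lbr (lamin B receptor, which is also a sterol reductase) and -0.02 for dhcr7 (the reductase that ends the pathway). The value of hsd17b7 was 0.27 without 10 µM library 2, and that of tm7sf2 was 0.035 without control library 3. The 95% interval of dhcr7 ran from -0.32 to 0.28 and that of lbr from -0.35 to 0.09. The locus of lss overlaps that of mcm3ap on the same strand, and mcm3ap, at a mean of 42.8 CPM beside 4.82 CPM for lss, was lower at 10 µM (log2 fold change -0.34, edgeR adjusted p = 0.0178), so the counts of lss are uncertain. The locus of pmvk overlaps eaf1 and that of dhcr7 overlaps nadsyn1, each on the opposite strand, and since no use of strand is stated the counts of pmvk and dhcr7 are uncertain too.

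**Figure D2:**
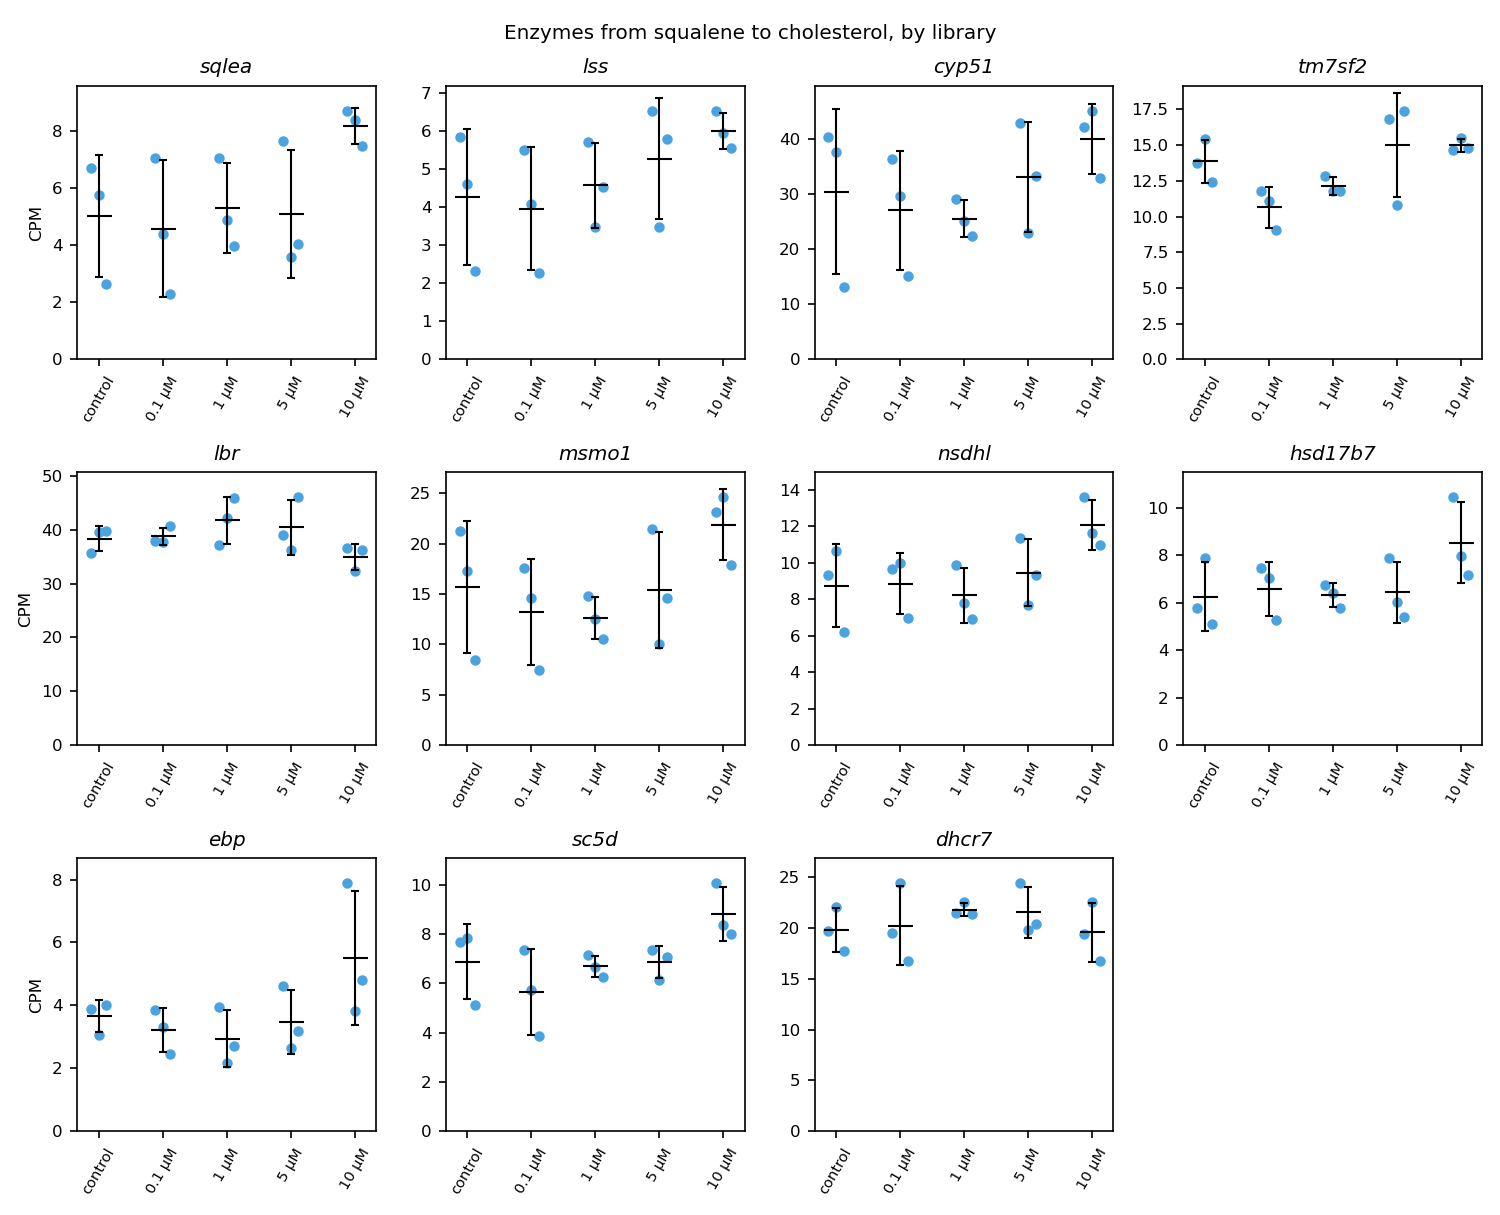
CPM of the 11 late enzymes in each of the 15 libraries, by dose from control to 10 µM, with the mean and SD of each group in black; points within a group stand in the order of their library numbers. For cyp51 and msmo1 the third point of the control group, 13.1 and 8.47 CPM, lies below every library at 10 µM and far below the other controls.

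Among the genes of sterol sensing, insig1 rose at 10 µM and srebf2, scap and insig2 did not pass. The gene insig1 (ENSDARG00000010658, chromosome 7 from 41007773 to 41014773) encodes a brake on SREBP activation and is itself a known SREBP target in mammals. Its levels were 26.8, 27.6 and 31.5 CPM in the control libraries, 32.6, 27.2 and 26.4 CPM at 0.1 µM, 37.2, 27.5 and 25.7 CPM at 1 µM, 49.9, 32.9 and 35.2 CPM at 5 µM, and 50.4, 39.3 and 50.9 CPM at 10 µM. All 3 libraries at 5 µM and all 3 at 10 µM lay above every control library, and 5 µM library 1 was close to the highest 10 µM libraries. At 10 µM insig1 averaged 46.9 ± 6.58 CPM, against 28.6 ± 2.50 CPM in controls (SD, n = 3 each), a log2 fold change of 0.71 (SE 0.166, edgeR adjusted p = 0.0116). It did not pass without 10 µM library 2 (adjusted p = 0.0593) or 10 µM library 4 (0.0508).

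The transcript of srebf2 itself (ENSDARG00000063438, chromosome 3 from 1107102 to 1130892) had 75.6, 69.9 and 65.0 CPM in the control libraries, 83.6, 62.1 and 59.6 CPM at 0.1 µM, 75.7, 55.2 and 70.5 CPM at 1 µM, 68.2, 70.5 and 69.8 CPM at 5 µM, and 106, 93.0 and 80.4 CPM at 10 µM. All 3 libraries at 10 µM lay above all 3 controls, though library 4 lay below 0.1 µM library 1. The log2 fold change against control was 0.41 (SE 0.138, edgeR adjusted p = 0.0576), just short of the threshold. It passed with a filter of at least 5 CPM in 3 libraries (adjusted p = 0.0476), with the trend over gene length removed (0.0372), with DESeq2 (0.0420) and with only the control and 10 µM groups in the fit (0.0199). It did not pass with DESeq2 size factors, with no filter, or in any of the 6 fits without a single library. In those 6 fits the log2 fold change of srebf2 ran from 0.31 to 0.51. The highest adjusted p under any alternative was 0.246.

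The paralogue insig2 had 3.88, 3.74 and 2.41 CPM in the control libraries, 3.61, 3.37 and 3.01 CPM at 0.1 µM, 3.64, 2.25 and 3.71 CPM at 1 µM, 2.97, 2.87 and 3.98 CPM at 5 µM, and 5.48, 3.76 and 4.58 CPM at 10 µM. The 10 µM and control libraries overlapped, and the log2 fold change was 0.46 (SE 0.233, edgeR adjusted p = 0.205). For scap, which encodes the SREBP escort, the libraries at 10 µM had 33.3, 31.4 and 29.7 CPM, against 27.8, 26.9 and 27.1 CPM in controls (log2 fold change 0.21, SE 0.107, edgeR adjusted p = 0.214). Those groups did not overlap, but the difference did not pass. The scap levels at 0.1 µM (33.7, 29.3 and 28.9 CPM) and at 1 µM (32.0, 28.3 and 28.8 CPM) lay above every control as well. At 0.1 µM library 1 was above all libraries at 10 µM, so the separation was not particular to the top dose.

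Both genes of the LDL receptor rose at 10 µM. The gene ldlra (ENSDARG00000029476, chromosome 3 from 19299309 to 19323689) had 85.4, 67.3 and 70.9 CPM in the control libraries, 91.1, 63.8 and 67.2 CPM at 0.1 µM, 86.2, 70.4 and 84.9 CPM at 1 µM, 107, 86.7 and 72.7 CPM at 5 µM, and 108, 116 and 108 CPM at 10 µM. The 10 µM libraries were all above the controls, and 5 µM library 1 came close to them. The gene ldlrb (ENSDARG00000026759, chromosome 6 from 102506 to 109626) had 37.8, 32.5 and 26.0 CPM in the control libraries, 47.6, 26.5 and 25.2 CPM at 0.1 µM, 41.4, 28.1 and 28.0 CPM at 1 µM, 37.5, 31.7 and 27.3 CPM at 5 µM, and 69.5, 59.8 and 58.0 CPM at 10 µM. For ldlrb every library at 10 µM was above all 12 others.

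The log2 fold change at 10 µM against control was 0.57 for ldlra (SE 0.15, edgeR adjusted p = 0.0208) and 0.96 for ldlrb (SE 0.220, edgeR adjusted p = 0.0105). In CPM, ldlrb averaged 62.4 ± 6.22 at 10 µM and 32.1 ± 5.92 in controls (SD, n = 3 each). Without control library 3, ldlrb had an adjusted p of 0.0569 and ldlra one of 0.0810, and without 10 µM library 2 they had 0.0556 and 0.0653. For ldlra the threshold was also missed without control library 2 (adjusted p = 0.0725), 10 µM library 3 (0.0568) and 10 µM library 4 (0.0540), while its log2 fold change stayed between 0.50 and 0.59 in those fits.

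Of the genes that move internalized cholesterol, npc2 and stard4 rose at 10 µM and npc1 did not pass against control. The gene npc2 (ENSDARG00000090912, chromosome 17 from 43030317 to 43031828) encodes the soluble lysosomal protein that hands cholesterol to NPC1. It had 49.9, 58.1 and 48.2 CPM in the control libraries, 59.2, 60.5 and 48.8 CPM at 0.1 µM, 56.2, 65.6 and 57.5 CPM at 1 µM, 59.2, 49.9 and 56.1 CPM at 5 µM, and 71.5, 64.8 and 73.8 CPM at 10 µM. The 10 µM libraries lay above the controls by a small margin, and 1 µM library 2 lay above the lowest of them. The gene stard4 (ENSDARG00000102477, chromosome 21 from 244503 to 248613) encodes a soluble carrier of cholesterol between membranes. It had 5.10, 5.21 and 4.96 CPM in the control libraries, 6.91, 5.52 and 4.12 CPM at 0.1 µM, 6.31, 3.95 and 5.69 CPM at 1 µM, 6.76, 6.21 and 6.0 CPM at 5 µM, and 7.65, 8.92 and 8.62 CPM at 10 µM. Each 10 µM library was above every other library for stard4, and each 5 µM library was above the controls.

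Against control, the log2 fold change at 10 µM was 0.43 for npc2 (SE 0.106, edgeR adjusted p = 0.0159) and 0.72 for stard4 (SE 0.188, edgeR adjusted p = 0.0199). Neither passed without control library 1 (npc2 0.0612, stard4 0.0574), control library 3 (npc2 0.0766, stard4 0.0699) or 10 µM library 4 (npc2 0.0661, stard4 0.0628), these values being adjusted p. The threshold was also missed by npc2 without 10 µM library 2 (adjusted p = 0.0669) and by stard4 without 10 µM library 3 (0.0542). The membrane partner npc1 had 150, 161 and 152 CPM in the control libraries, 155, 175 and 149 CPM at 0.1 µM, 159, 166 and 130 CPM at 1 µM, 150, 153 and 101 CPM at 5 µM, and 189, 176 and 177 CPM at 10 µM. Its 10 µM libraries stood above all others, by a small margin from 0.1 µM library 2, and 5 µM library 3 stood far below them. For npc1 the log2 fold change against control was 0.23 (SE 0.132, edgeR adjusted p = 0.268).

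**Figure D3:**
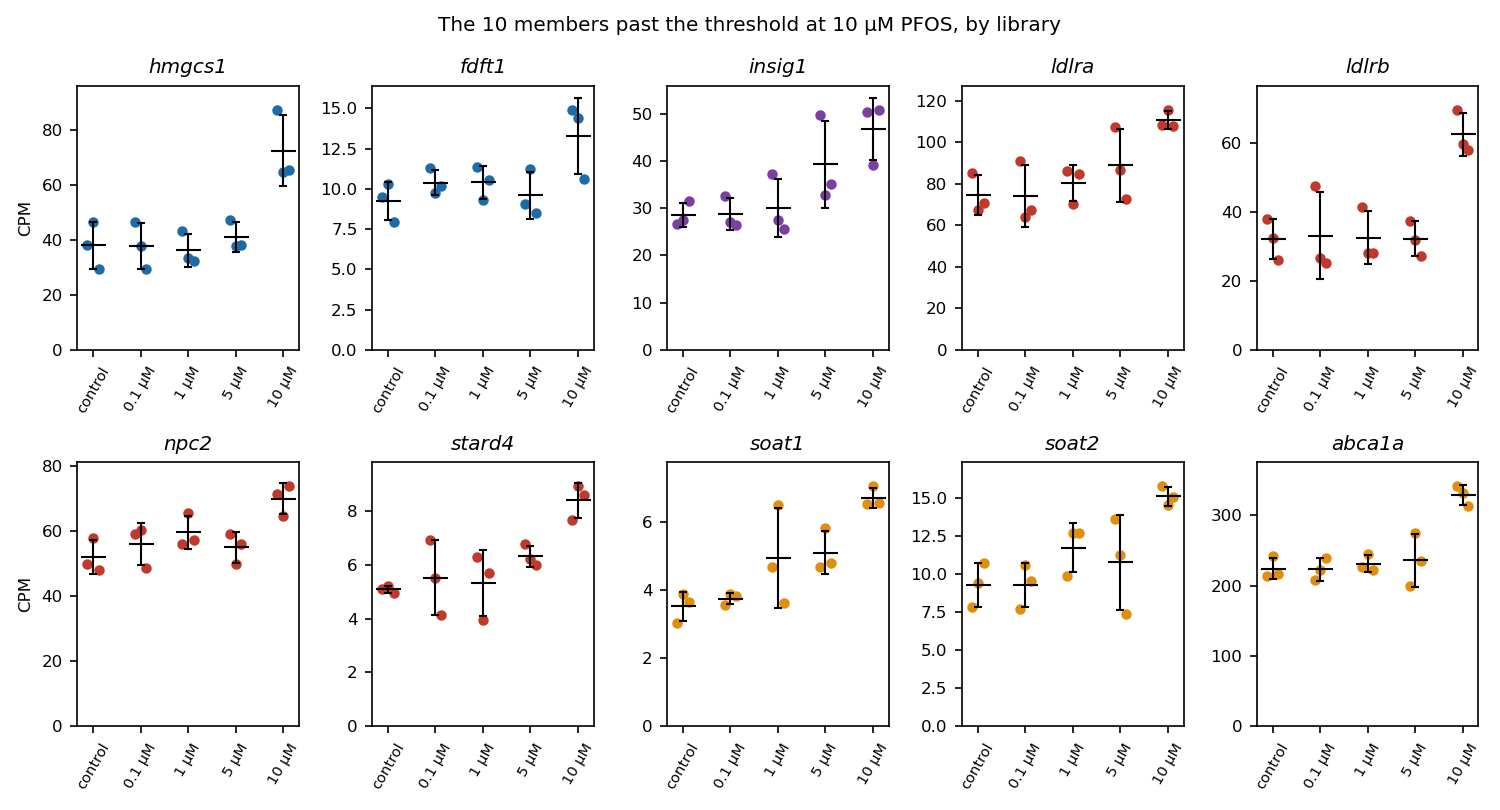
CPM of the 10 genes with adjusted p below 0.05 at 10 µM, in each of the 15 libraries by dose from control to 10 µM, with the mean and SD of each group in black. In all 10 panels the 3 libraries at 10 µM lie above the 3 controls. The panels were chosen by the test of those groups, so that separation is no further evidence. For insig1, stard4 and soat1 the 3 libraries at 5 µM lie above the controls as well, as they also do for pmvk, which is not drawn. The share of all tested genes separated in this way was not counted.

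Both genes of the esterifying enzyme rose at 10 µM. The gene soat1 (ENSDARG00000062297, chromosome 8 from 14886452 to 14910223) encodes the acyltransferase that stores cholesterol as esters in most cells. It had 3.04, 3.87 and 3.65 CPM in the control libraries, 3.56, 3.87 and 3.81 CPM at 0.1 µM, 4.68, 6.51 and 3.63 CPM at 1 µM, 4.68, 5.82 and 4.79 CPM at 5 µM, and 6.53, 7.04 and 6.56 CPM at 10 µM. All 5 µM and all 10 µM libraries were above every control, and 1 µM library 2 came close to the lowest at 10 µM. Its log2 fold change at 10 µM was 0.92 (SE 0.190, edgeR adjusted p = 0.00601), and it passed whichever library was left out (highest adjusted p 0.0307).

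The gene soat2 (ENSDARG00000059824, chromosome 6 from 58737168 to 58764672) encodes the form that in mammals works mainly in liver and intestine. It had 7.84, 9.42 and 10.7 CPM in the control libraries, 7.71, 10.6 and 9.59 CPM at 0.1 µM, 9.87, 12.7 and 12.7 CPM at 1 µM, 13.7, 11.3 and 7.42 CPM at 5 µM, and 15.8, 14.6 and 15.1 CPM at 10 µM. The 10 µM libraries were above all others, and the 5 µM libraries spread over the whole range below them. Its log2 fold change was 0.70 (SE 0.190, edgeR adjusted p = 0.0242). It did not pass without control library 1 (adjusted p = 0.0950), control library 2 (0.0563), or 10 µM library 2 (0.0895) or 4 (0.0661). The locus overlaps igsf8, a gene on the opposite strand at a mean of 20.7 CPM, so its counts are uncertain, although igsf8 had a log2 fold change of the other sign, -0.19 (edgeR adjusted p = 0.285).

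The exporter gene abca1a (ENSDARG00000074635, chromosome 1 from 52560549 to 52628407), which encodes the transporter that loads cholesterol onto apolipoproteins, had the smallest adjusted p of the 35. It had 214, 242 and 217 CPM in the control libraries, 208, 222 and 240 CPM at 0.1 µM, 226, 245 and 223 CPM at 1 µM, 199, 274 and 235 CPM at 5 µM, and 341, 332 and 314 CPM at 10 µM. Every library at 10 µM was above all 12 others, and the 4 groups below overlapped. At 10 µM abca1a averaged 329 ± 14 CPM, against 224 ± 15 CPM in controls (SD, n = 3 each), a log2 fold change of 0.55 (SE 0.105, edgeR adjusted p = 0.00406). It passed whichever library was left out (highest adjusted p 0.0238).

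Its paralogue abca1b had 130, 130 and 114 CPM in the control libraries, 168, 130 and 131 CPM at 0.1 µM, 171, 104 and 111 CPM at 1 µM, 134, 145 and 97.9 CPM at 5 µM, and 165, 164 and 145 CPM at 10 µM. The 10 µM libraries were above the controls but within the range of 0.1 µM and 1 µM. Its log2 fold change was 0.34 (SE 0.174, edgeR adjusted p = 0.202), and it passed in a fit of only the control and 10 µM groups (adjusted p = 0.0204). The gene nr1h3, which encodes LXR, had 53.7, 55.5 and 56.4 CPM at 10 µM, against 55.1, 54.6 and 55.3 CPM in controls. Its log2 fold change was 0.01 with a 95% interval of -0.16 to 0.17, the narrowest interval of the 35.

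Within paralogue pairs, the log2 ratio of estimated counts was compared between 10 µM and control libraries. The test was an exact two-sided permutation test, in which 3 against 3 cannot go below p = 0.1. The ratio hmgcra to hmgcrb averaged -0.83 ± 0.126 at 10 µM and -0.51 ± 0.087 in controls, and ldlra to ldlrb averaged 0.83 ± 0.167 at 10 µM and 1.22 ± 0.202 in controls (SD, n = 3 each). These 2 ratios differed by -0.32 and -0.39, so the b copies stood higher relative to the a copies at 10 µM. For soat1 to soat2 the difference was 0.22, for abca1a to abca1b 0.21 and for insig1 to insig2 0.23. With single libraries left out, the difference for insig1 to insig2 ran from 0.06 (without control library 1) to 0.52 (without control library 3), and that for soat1 to soat2 was 0.14 without control library 3. The exact p was 0.1, the smallest possible, for 4 pairs and 0.4 for insig1 to insig2, with 0.125 and 0.4 after Benjamini-Hochberg adjustment over the 5 pairs. Since no pair could reach 0.05, these p-values do not show whether the ratios differ.

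The change was seen at the top dose. Against 5 µM, 7 of the 35 genes were higher at 10 µM and 0 were lower, beside 8.06% higher and 7.34% lower over all tested genes, with a median log2 fold change of 0.34. The count of 7 fell to 1 without 10 µM library 2, to 3 without 5 µM library 3 or with only those 2 groups in the fit, and to 4 without 10 µM library 3. This comparison uses the same 10 µM libraries as the one against control and is no separate evidence. The genes that passed were hmgcs1 (log2 fold change 0.82, SE 0.186, edgeR adjusted p = 0.0100), fdft1 (0.47), srebf2 (0.42), ldlrb (0.96, SE 0.220, adjusted p = 0.0104), npc1 (0.43), npc2 (0.35) and abca1a (0.48, SE 0.105, adjusted p = 0.00847). Of these, npc1 had the adjusted p of 0.268 against control given above and 0.0405 against 5 µM, where 5 µM library 3 was low, and without that library its adjusted p was 0.146 and its log2 fold change 0.25. Values without 10 µM library 2, in adjusted p, were 0.0644 for hmgcs1, 0.191 for fdft1, 0.214 for srebf2, 0.0546 for ldlrb, 0.137 for npc1 and 0.124 for npc2, and abca1a passed in each such fit. Leaving out other libraries also put fdft1 (5 µM libraries 1 and 3 and 10 µM library 3, adjusted p = 0.103, 0.172 and 0.133), srebf2 (each 5 µM library and 10 µM library 3, 0.0873 to 0.115), npc1 (10 µM libraries 3 and 4, 0.0681 and 0.0851) and npc2 (5 µM libraries 2 and 3 and 10 µM library 4, 0.0837 to 0.125) above the threshold. The calls of fdft1 and srebf2 also depended on the settings. In adjusted p, fdft1 had 0.0588 with no filter, 0.0611 with the length trend removed, 0.0543 by DESeq2 and 0.116 with only the 2 groups, and srebf2 had 0.0529 with no filter and 0.0512 with only the 2 groups. With only those groups npc1 (adjusted p = 0.106) and npc2 (0.0687) did not pass either.

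At 5, 1 and 0.1 µM, 0 of the 35 genes passed against control, by edgeR and by DESeq2, and edgeR called 0% of all tested genes at each of these doses. The median log2 fold change of the 35 was 0.05 at 5 µM, 0.02 at 1 µM and 0.01 at 0.1 µM. Without adjustment, at the same threshold of 0.05, edgeR put 2 of the 35 higher at 5 µM, insig1 (log2 fold change 0.46, SE 0.166) and soat1 (0.53, SE 0.193), beside 2% of all tested genes. At 1 µM soat1 alone reached that level (log2 fold change 0.49), beside 0.871% of all tested genes, and at 0.1 µM tm7sf2 alone did so with a lower value (-0.38), beside 1.13% of all tested genes in either direction. The F test over the 4 doses together called 5 of the 35, beside 7.9% of all tested genes: hmgcs1 (edgeR adjusted p = 0.00825), abca1a (0.00902), ldlrb (0.0203), soat1 (0.0226) and insig1 (0.0248). That count was 0 without 10 µM library 2, 2 without 10 µM library 4, 3 without 10 µM library 3 and 8 without 0.1 µM library 1. With DESeq2, which used a likelihood ratio test over the groups in place of the F test, it was 10.

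**Figure D4:**
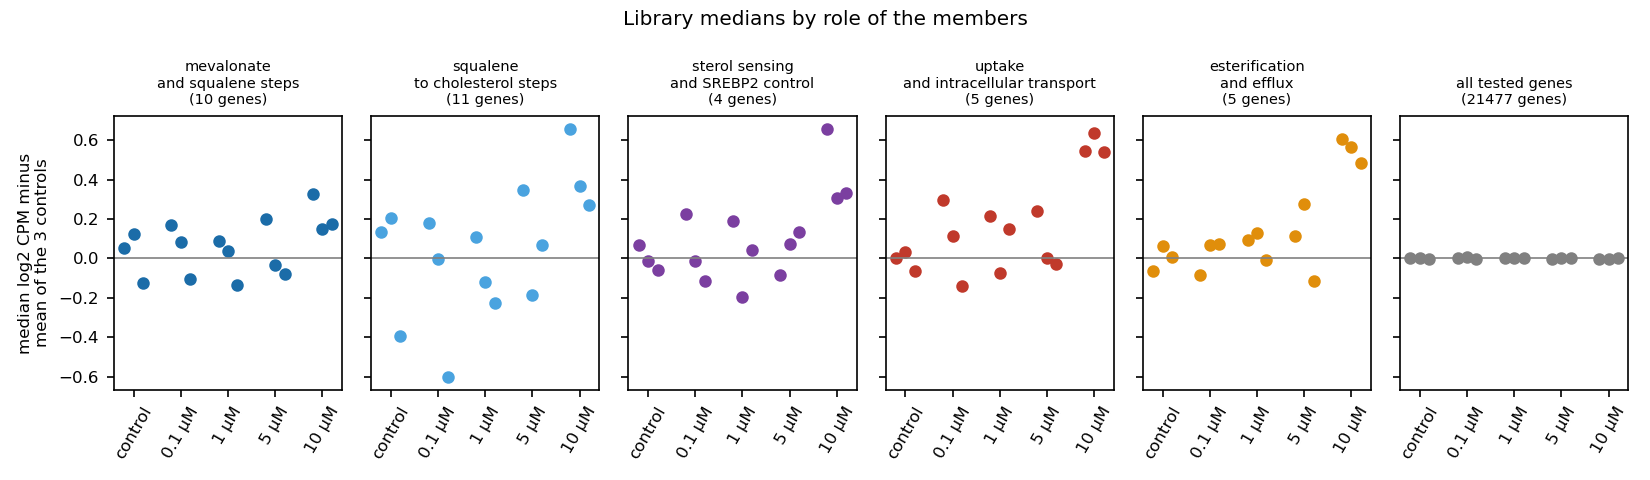
Median over the genes of each role of log2 CPM minus the mean of the 3 controls, per library and by dose from control to 10 µM, with all tested genes at the right. In uptake and transport the 10 µM libraries are at 0.55, 0.64 and 0.54 and the controls at 0.00, 0.03 and -0.06; in the squalene to cholesterol steps they are at 0.66, 0.37 and 0.27 and the controls at 0.13, 0.21 and -0.39.

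The plot of library medians shows how far libraries of one group differed. For the esterification and efflux genes the 10 µM libraries had medians of 0.61, 0.57 and 0.49, against -0.06, 0.06 and 0.01 in controls on the same log2 scale. For the late enzymes the 3 controls alone spanned -0.39 to 0.21, a range wider than the 0.27 by which the lowest 10 µM library stood above the control mean. The 5 µM libraries of the late enzymes spanned -0.19 to 0.35.

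**Figure D5:**
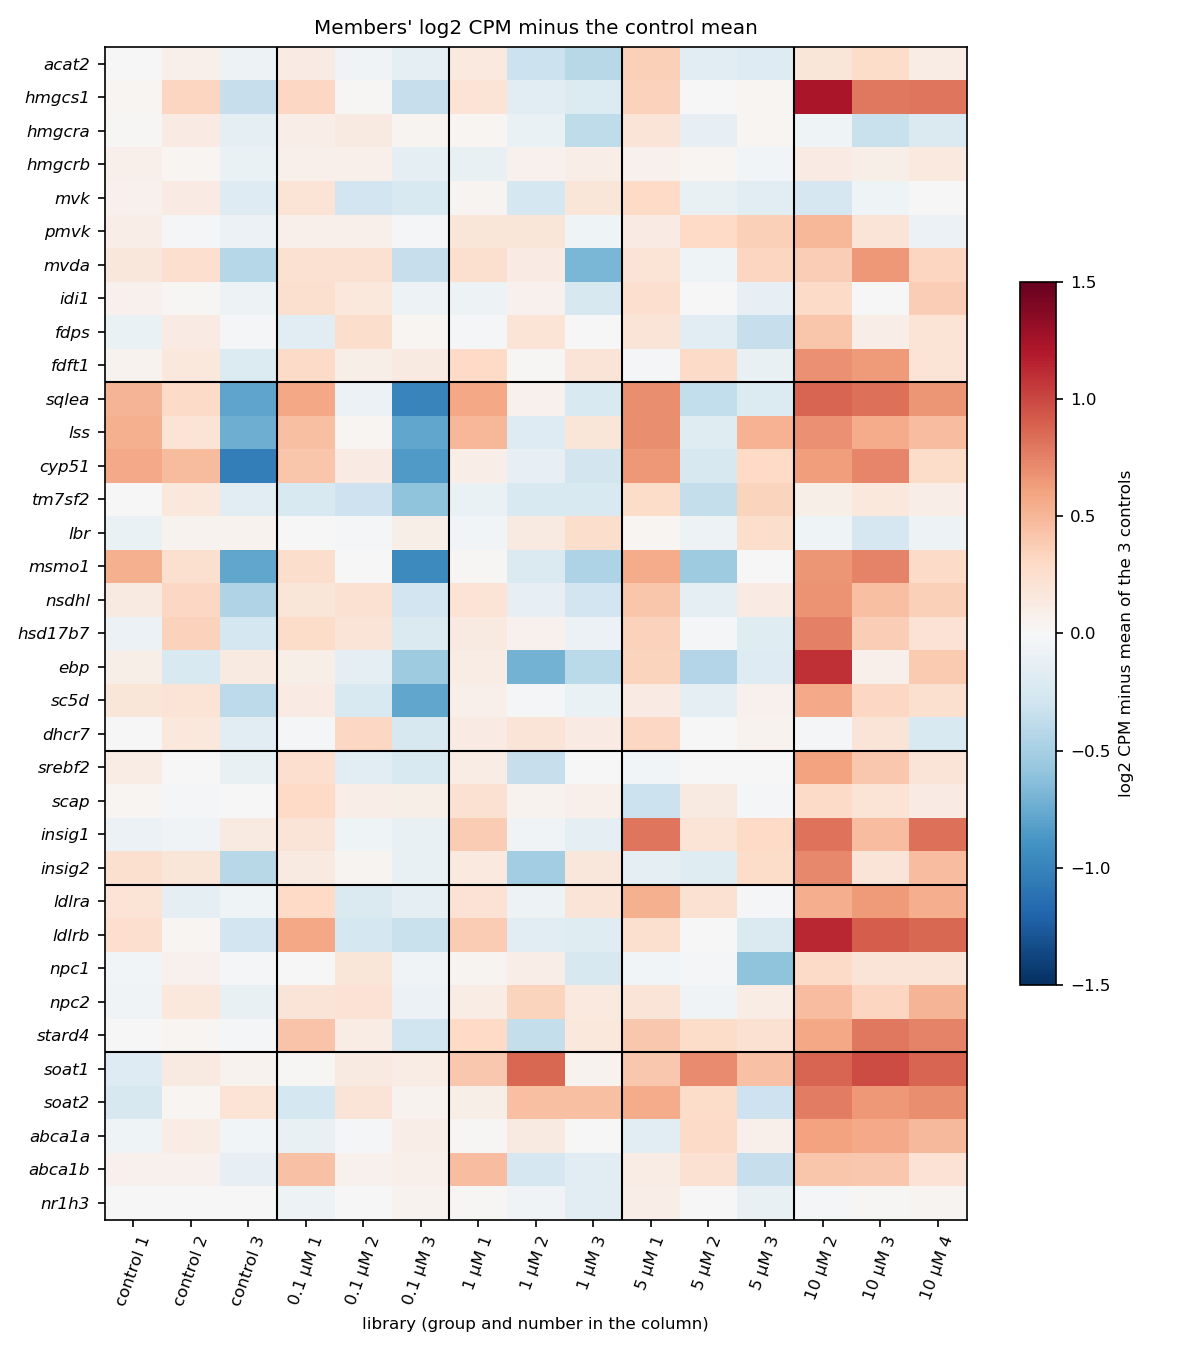
Log2 CPM minus the mean of the 3 controls for each of the 35 genes (rows, by role, divided by black lines) in each of the 15 libraries (columns, by dose). The 10 µM columns are red across most rows of uptake, transport, esterification and efflux. The columns of control library 3 and 0.1 µM library 3 are blue across most late enzymes. Those libraries were the lowest of their groups for 9 and 10 of 11 late enzymes, and for 9 and 7 of 10 early enzymes.

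On the deposited RPKM scale, which allows levels of different genes to be compared per length, npc2 was the most abundant of the 35 in control larvae, at 67.4 ± 7.06 RPKM (SD, n = 3). It was followed by npc1 at 32.3 ± 1.38, abca1a at 24.0 ± 1.79 and fdps at 22.5 ± 0.696 RPKM, the last of which lay within the spread of abca1a. The least abundant were pmvk at 0.62 ± 0.031, lss at 1.82 ± 0.738, soat1 at 1.91 ± 0.255 and mvk at 2.08 ± 0.221 RPKM, and the levels of lss, soat1 and mvk did not differ beyond their spread. The genes that rose at 10 µM were found at both ends of this order, soat1 among the 4 least abundant and abca1a and npc2 among the 4 most abundant. The pair of reductase genes stood at 7.23 ± 0.571 RPKM for hmgcra and 11 ± 0.488 RPKM for hmgcrb, and the LDL receptor pair at 16.4 ± 1.84 for ldlra and 12.6 ± 2.21 RPKM for ldlrb.

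The members had 83 transcripts in the deposited transcript table, 25 genes having more than 1, and 55 of the 83 passed the filter. At 10 µM, 8 of those transcripts were higher than in controls and 0 were lower, beside 3.11% higher and 3.13% lower of 32275 transcripts tested. For 7 of the 8 the transcript was the main one of its gene, holding 100% of the counts of soat1, 99.4% of those of ldlrb, 98.1% of insig1, 98.1% of npc2, 90.7% of soat2, 85.9% of hmgcs1 and 70.4% of stard4. The exception was a minor transcript of ldlra (ENSDART00000046297), which held 2.59% of that gene's counts. It had 8.70, 5.63 and 3.51 CPM at 10 µM, against 0, 0.468 and 0.438 CPM in controls, and 0.62 to 3.42 CPM in the libraries of the other doses (log2 fold change 4.24, SE 0.771, edgeR adjusted p = 0.0111). Its levels at 10 µM were above those of all other libraries, and its fold change rests on very few control counts. The main transcript of ldlra (ENSDART00000146955) had 99.7, 110 and 104 CPM at 10 µM, against 85.4, 66.9 and 70.4 CPM in controls, and did not pass (log2 fold change 0.50, edgeR adjusted p = 0.0874). The genes abca1a and fdft1, which rose as genes, had no passing transcript. The main transcripts of abca1a, with 59.3% and 40.6% of its counts, had log2 fold changes of 0.50 and 0.63 (edgeR adjusted p = 0.0639 and 0.225). Those of fdft1, with 92.1% and 7.94%, had 0.52 and 0.50 (edgeR adjusted p = 0.0882 and 0.549). Counts per transcript are estimates, since transcripts of a gene share most of their reads. The count of 8 fell to 0 without 10 µM library 2, to 2, 5 and 3 without control libraries 1, 2 and 3, and to 4 without 10 µM library 4, and without 10 µM library 3 a single transcript was lower.

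Genes of the same pathways that are not among the 35 included both higher and lower ones at 10 µM. The counts by list stand beside 7.78% higher and 6.65% lower over all tested genes. Of 15 tested genes listed under other sterol and isoprenoid synthesis, 0 were higher and 1 was lower. The lower gene was cyp27a1.4 (log2 fold change -1.09, adjusted p = 0.0160), a sterol hydroxylase relative and not an enzyme of cholesterol synthesis. The counts of that list are therefore not those of synthesis enzymes alone. In that list 11 of the 15 had a positive log2 fold change, with a median of 0.17, and without adjustment 4 were higher and 1 lower at 0.05. Unadjusted p-values that low were common at 10 µM: the member hsd17b7, with an edgeR p of 0.0428, ranked 5982 of 21477 tested genes. Of 15 other regulators of SREBP and HMG-CoA reductase, 3 were higher and 1 was lower, with 8 positive values and a median of 0.04. The highest was prkaa2, a catalytic subunit of AMP-activated kinase, at 3.88 ± 0.673 CPM at 10 µM and 1.4 ± 0.42 CPM in controls (log2 fold change 1.46, adjusted p = 0.00764). The ubiquitin ligase genes amfra (0.36) and rnf139 (0.40) were also higher, and rnf145b was lower (-0.31).

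Among 15 other lipoprotein receptors and their regulators, 0 were higher and 4 were lower, with 5 positive values and a median of -0.09. The high-density lipoprotein receptor gene scarb1 averaged 19.4 ± 2.33 CPM at 10 µM and 50.0 ± 7.54 CPM in controls (log2 fold change -1.37, adjusted p = 0.00163). The others were the LDL receptor relatives vldlr (-0.35) and lrp8 (-0.43) and the sorting receptor gene sort1a (-0.37). Of 19 other genes of intracellular sterol transport, 4 were higher and 0 lower: the lysosomal membrane gene lamp1a (1.26), the oxysterol-binding protein relative osbpl2a (0.62), and the sterol carriers star (0.76) and stard5 (1.58). Of 23 genes of efflux and plasma lipoproteins, 6 were higher and 2 lower. They included lcat (1.09) and cetp (0.87), which esterify and exchange plasma cholesterol, and apobb.2 (-2.25), an apolipoprotein B gene with 5.50 ± 0.740 CPM at 10 µM and 26.2 ± 3.82 CPM in controls. The symbol apoa4b.2 stands on 2 rows of the table, both higher (0.69 and 0.68). Of 13 fatty acid synthesis genes, 2 were higher, me1 (1.08) and acacb (0.47), and 0 were lower.

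Markers of tissues that handle cholesterol differed between the same groups, where 7.78% of all tested genes were higher and 6.65% lower. Of 18 hepatocyte markers tested, 7 were higher at 10 µM and 0 lower, fabp10a and agxtb among them (log2 fold changes 0.65 and 1.1). Positive values were found for 14 of the 18, with a median of 0.34 and a lowest value of -0.81. The summed level of the list was 4072 to 4173 CPM at 10 µM and 3204 to 3554 CPM in controls. It was 2638 to 4043 CPM at 5 µM (median 3991) and 3377 to 3887 CPM at 1 µM (median 3870). At both of those doses the median library lay above every control, but 0 markers passed at either. Marker by marker, 8 of the 18 had a positive value at 5 µM, with a median log2 fold change of -0.02 and a lowest value of -0.94. At 1 µM 16 of the 18 were positive, with a median of 0.14. Of 10 macrophage and microglia markers 4 were higher and 0 lower, the higher ones being marco, ctss2.1, mfap4 and apoeb. Positive values were found for 8 of the 10, with a median log2 fold change of 0.46 and a lowest value of -0.67. The summed level of the 10 was 1705 to 1895 CPM at 10 µM and 875 to 1141 CPM in controls. Most of that sum was apoeb, at 1710 ± 89.1 CPM at 10 µM and 927 ± 133 CPM in controls (SD, n = 3 each). At 10 µM marco, ctss2.1 and mfap4 averaged 9.28, 7.53 and 6.41 CPM, so the sum says little about the other markers. The gene apoeb also stands in the list of lipoprotein genes.

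Other tissues went the other way or showed little, beside the same 7.78% higher and 6.65% lower over all tested genes. Of 11 neuron markers 5 were lower and 0 higher, with summed levels of 1646 to 1755 CPM at 10 µM and 1981 to 2134 CPM in controls. Of 12 skeletal muscle markers 4 were lower and 0 higher, with 47051 to 50968 CPM at 10 µM and 60130 to 65058 CPM in controls. Of 12 enterocyte markers 1 was lower, vil1 (log2 fold change -0.53), and 0 were higher. Only 1 of the 12 had a positive value, and the median log2 fold change was -0.17. The summed level of the 12 was 3810 to 4259 CPM at 10 µM and 4237 to 5002 CPM in controls, ranges that overlap. Of 7 tested yolk syncytial layer markers 0 passed. Of 13 glia and myelin markers 1 was higher and 1 lower. No marker of these lists was at 0 in all libraries of a group. The part of hepatocyte, macrophage or any other cell type's RNA in the cholesterol gene values was not tested.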

How the data were processed

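RNA was taken from whole AB zebrafish larvae at 120 hpf (RNAzol extraction, libraries quantified with a KAPA kit, per the labels' protocols). The authors deposited estimated counts for each gene and each transcript, as whole numbers, and RPKM values (reads per length and library total), per the file headers. The aligner, counter, genome build and use of strand are not named by the sources used here. Of the per-sample columns, 18 in the gene table and 30 in the transcript table were not used. The 10 µM columns (2, 3, 4) do not match the numbers in the titles (1, 2, 3), so their counts were assigned to the group only and their RPKM values were not used.

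Estimated counts were rounded, filtered with filterByExpr, scaled by TMM and fitted in edgeR 4.0.16 (R 4.3.3, glmQLFit and glmQLFTest, two-sided) with all 15 libraries and 5 group means, so that all groups share 1 estimate of spread per gene. Levels are CPM on TMM-scaled sizes. SE is the absolute log2 fold change divided by the square root of F, and 95% intervals use the t distribution. Transcripts were fitted apart in the same way. Ratios of paralogues were taken on estimated counts, with 0.5 added to each count. The total counts per library, from 11956657 to 19978125, set the counting precision. No row lacked a gene name. Sequences were not used here.

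Values in every library were given for members passing any of 6 gene-level tests (each dose against control, 10 against 5 µM, the F test over the doses) and for both members of each paralogue pair; other members are given in ranges, counts or fold changes, and values by library were added for 4 late enzymes and for scap and nr1h3 after they were seen. From each of 13 lists of other genes at most 4 were named by smallest p, with further passing markers named after seeing them. The members and lists were chosen with earlier results of these data known. Same-numbered libraries of the control, 0.1 and 1 µM groups deviated from their group means together (correlations from 0.190 to 0.452), so their numbers were taken to pair them, and a replicate block over these 9 libraries was added after seeing the data. Library 1 at 5 µM correlated with the other libraries 1 (0.304 to 0.395), but 5 µM libraries 2 and 3 did not with their own numbers (-0.137 to 0.0732), and library 2 correlated with the other libraries 3 (0.113 to 0.315) and library 3 with the other libraries 2 (0.170 to 0.230). The 5 µM numbers were therefore not taken to pair.

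Alternatives were DESeq2 size factors, no filter, at least 5 CPM in 3 libraries, DESeq2 1.42.0 as the tool, the trend over gene length removed, only the 2 groups compared, a replicate block, a pseudocount of 5 for ratios, and each library left out in turn.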

Additional observations from a re-analysis of the deposited data

How the results depend on the processing

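No called fold change of a member reversed its sign under any alternative run. Of the 10 genes higher at 10 µM, all 10 passed under DESeq2 size factors, no filter, the stricter filter, the length trend removed, DESeq2 as the tool and only the 2 groups compared, where the counts were 10 to 12. Other settings moved the count for 10 against 5 µM to 3 (only the 2 groups compared, main 7). The test over the doses together called 10 with DESeq2 as the tool, against 5 by the F test. DESeq2 used a likelihood ratio test there, which is another statistic. The cause of these shifts was not tested. Leaving out a library gave 4 to 8 genes higher and 0 lower at 10 µM, a median log2 fold change of 0.24 to 0.50, 1 to 8 genes higher against 5 µM, 0 to 8 by the F test, and 0 to 7 transcripts higher and 0 to 1 lower. The genes hmgcs1, soat1 and abca1a passed at 10 µM in each of these 6 fits. With the replicate block over the 9 paired libraries, 0 members passed at 1 µM and 0.1 µM, with median log2 fold changes of 0.02 and 0.01. This block changed no call of a member. At 1 µM it called 1 gene higher and 0 lower over all tested genes, where the main fit called 0. With so few calls over the whole table, the lack of passing members says little about the block. A block over 12 libraries gave 0 at 5 µM (median 0.05), but since the 5 µM numbers were not taken to pair, that value tests no pairing. No paired analysis was run for 10 µM because its columns carry other numbers than the titles. Whether its libraries deviate together with same-numbered libraries of other groups was not examined. If the numbers mark replicate sets, the 10 µM group holds sets 2, 3 and 4 and the controls hold sets 1, 2 and 3. A gene that did not pass may still differ: the 95% interval of sqlea at 10 µM ran from -0.10 to 1.5 on the log2 scale. Counting precision was lowest for pmvk, mvk and insig2, the members with the fewest counts.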
